A study of Mus musculus with 9 samples.

Results

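Rag1, Rag2, Dntt and Ptcra are the lymphocyte genes whose products cut, diversify and first display a rearranged T-cell receptor chain. They were followed here in the thymus of irradiated mice. They were read by the 6 probe sets annotated to exactly 1 of these 4 gene symbols, out of 45101 probe sets on the array and 18193 genes with a probe set of their own. Dntt had 3 probe sets and the other members had 1 each.

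In V(D)J recombination, the RAG1 and RAG2 proteins act as 1 endonuclease complex that cuts DNA beside the V, D and J segments of the receptor loci. Terminal deoxynucleotidyl transferase, the product of Dntt, adds nucleotides without a template to the opened ends, and non-homologous end joining seals them. Ptcra encodes pre-T alpha, the chain that pairs with a newly rearranged T-cell receptor beta chain on immature thymocytes and signals through the CD3 proteins. In the thymus these genes are used by developing T cells. Thymic epithelium and other stroma do not rearrange receptors.

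Each sample came from the thymus of female C57BL/6J mice aged 6 to 8 weeks and was depleted of CD45-bearing cells with magnetic beads. The 3 groups were untreated mice, mice 4 days after SL-TBI and mice 7 days after SL-TBI, with 3 arrays each. SL-TBI, usually read as sublethal total body irradiation, was given as 550 cGy from a cesium source without hematopoietic rescue. All groups shared the strain, the depletion and the pooling of several mice per sample. The protocol calls the pooled material thymic ECs, an abbreviation that the labels do not explain. They do not say whether the arrays of a group came from separate pools, so the p-values measure a spread that may be technical.

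The samples were labelled as non-hematopoietic stromal cells, and the blood cell markers went against that label on the untreated arrays. Ptprc, which encodes CD45 itself, read 12.22 ± 0.25 there (log2, SD, n = 3), and the T-cell receptor component Cd3e read 9.52 ± 0.26. The epithelial marker Epcam read 11.18 ± 0.45, the fibroblast marker Pdgfra 9.35 ± 0.42 and the endothelial marker Pecam1 4.04 ± 1.18 on the same arrays. Bulk arrays do not show which cells carried a transcript, and the source of the 4 genes' signal was not tested. In such bulk samples, fewer cells of a type and less RNA per cell cannot be told apart. A log2 value of 4 served as the detection level, which 42.1% to 44.2% of an array's values reached. The correlation between arrays over the genes tested ran between 0.8359 and 0.9917.

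The genes lie on 3 chromosomes in the GRCm38.p6 annotation of RefSeq. Rag1 (chr2:101638252-101649532, minus strand) and Rag2 (chr2:101624712-101632528, plus strand) are neighbours that are transcribed towards each other, with 5723 bases between them. Dntt lies on the plus strand of chromosome 19 (chr19:41029275-41059525), and Ptcra on the minus strand of chromosome 17 (chr17:46755663-46763712). The promoter windows below, from 250 bases before to 50 bases after each annotated start, are shown because all 4 members were lower together on the irradiated arrays. They are given 5′ to 3′ on the gene's own strand, and capitals mark E-boxes (CAGNTG, where E proteins bind) and RUNX motifs (TGTGGT), on either strand.
Rag1 promoter, chr2:101649483-101649782, minus strand: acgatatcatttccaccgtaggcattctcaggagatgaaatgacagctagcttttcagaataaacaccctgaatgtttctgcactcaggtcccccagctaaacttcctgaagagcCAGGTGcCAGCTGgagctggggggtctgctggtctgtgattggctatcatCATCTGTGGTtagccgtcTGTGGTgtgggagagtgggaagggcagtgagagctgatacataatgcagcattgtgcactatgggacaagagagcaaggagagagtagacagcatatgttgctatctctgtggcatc
Rag2 promoter, chr2:101624462-101624761, plus strand: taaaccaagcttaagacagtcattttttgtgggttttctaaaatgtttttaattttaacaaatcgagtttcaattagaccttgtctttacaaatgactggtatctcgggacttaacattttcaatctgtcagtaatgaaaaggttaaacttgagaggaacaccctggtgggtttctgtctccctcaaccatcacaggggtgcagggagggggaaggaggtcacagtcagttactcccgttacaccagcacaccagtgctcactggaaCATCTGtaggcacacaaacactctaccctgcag
Dntt promoter, chr19:41029025-41029324, plus strand: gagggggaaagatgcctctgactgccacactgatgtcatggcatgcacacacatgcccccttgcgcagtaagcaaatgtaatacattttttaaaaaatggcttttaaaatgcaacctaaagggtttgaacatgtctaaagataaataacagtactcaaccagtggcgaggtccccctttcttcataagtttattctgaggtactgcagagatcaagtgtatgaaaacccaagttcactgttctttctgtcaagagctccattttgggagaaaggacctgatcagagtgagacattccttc
Ptcra promoter, chr17:46763663-46763962, minus strand: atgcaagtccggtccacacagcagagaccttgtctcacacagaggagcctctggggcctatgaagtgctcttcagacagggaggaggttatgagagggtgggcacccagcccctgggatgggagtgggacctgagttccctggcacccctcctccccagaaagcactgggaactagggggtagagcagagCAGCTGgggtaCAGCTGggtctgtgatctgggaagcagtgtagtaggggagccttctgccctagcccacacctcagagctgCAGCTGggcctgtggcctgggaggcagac

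The windows differed in the motifs they held. An E-box stood at 3 positions in the Rag1 window, at 3 in the Ptcra window and at 1 in the Rag2 window, and the Dntt window held none. Several E-boxes read CAGCTG on both strands, so that each gave a match on either strand. The Rag1 window held 2 RUNX motifs, of which the upstream one overlapped an E-box, and the other windows held none. Over the windows of all 32851 promoters in the same table, 51.4% held an E-box and 16.8% a RUNX motif. Of the other motifs searched on both strands, the Ikaros motif TGGGAA matched once in Rag1 and at 2 positions in Ptcra, against 25.6% of all windows. The NF-Y motif CCAAT matched in Rag1 alone, against 37.4% of all windows, and the GATA motif AGATAA in Dntt alone, against 11.2%. The TATA motif TATAAA, the Sp1 motif GGGCGG and the FOXO motif GTAAACA matched in no member window, against 13.6%, 35.7% and 3.65% of all windows. A match is a description of the letters, and its absence says only that these letters are not in the window.

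All 4 members were lower at both times after irradiation than in untreated thymus, and 3 of them were higher at day 7 than at day 4. Rag2 was the exception, since it stayed under the detection level at day 7. All 4 passed the filter that admitted a gene to the test, reaching log2 4 on 3 or more arrays. Rag2 passed through its untreated arrays alone, so a difference from untreated was built into its passing. Of the 10937 genes tested, 41.8% were higher and 21.4% lower at day 4 than untreated at an adjusted p under 0.05 by limma. Against untreated at day 7, 32.1% were higher and 22.0% lower, and 9.78% were higher and 17.6% lower at day 7 than at day 4. Those splits over all genes depended on the scaling of the arrays. Centring each array on 8 epithelial genes shifted the median log2 difference from untreated by -0.507 at day 4 and -0.484 at day 7. It left 26.3% and 16.9% of the called genes higher, in place of 66.1% and 59.3%. Quantile normalization moved the share of higher calls at day 7 against day 4 to 46.0%, in place of 35.8%. No member changed direction or call under either scaling.

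Rag1 encodes the subunit that holds the catalytic site of the recombinase. It read 13.19, 12.91 and 13.27 on the untreated arrays, 2.76, 3.07 and 3.61 at day 4, and 10.19, 10.22 and 10.30 at day 7 (log2). The groups did not overlap, every day 4 array lay under the detection level and every day 7 array lay far above it. At day 4 Rag1 was at least 557-fold lower than in untreated thymus, taking the detection level for the day 4 value (fitted log2 difference -9.97, SE 0.20, limma adjusted p = 4.4e-09). This was the largest fall among the 10937 genes tested, both as fitted and with all values below 4 set to 4. A fall to below detection is capped by the untreated level, which was high for Rag1 (mean 13.12), so the rank reflects that level in part. At day 7 the transcript was at least 75.4-fold higher than at day 4 (log2 difference 7.09, SE 0.20, limma adjusted p = 1.6e-07), which was also the largest rise of that comparison on both scales. It remained 7.38-fold lower than in untreated thymus (log2 difference -2.88, SE 0.20, limma adjusted p = 1.7e-05).

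Rag2 encodes the partner subunit, which binds a histone mark of active chromatin and without which RAG1 does not cut. It read 6.88, 6.02 and 6.55 on the untreated arrays, 2.35 on all 3 day 4 arrays, and 2.73, 2.80 and 2.74 at day 7 (log2). The untreated arrays stood clear of all irradiated ones, and both irradiated groups lay under the detection level. Rag2 was therefore at least 5.59-fold lower at day 4 than in untreated thymus and at least 5.59-fold lower at day 7, where both folds are bounds set by the same level. The fitted log2 differences were -4.14 at day 4 (SE 0.18, limma adjusted p = 3.8e-07) and -3.73 at day 7 (SE 0.18, limma adjusted p = 3.7e-06). Since Rag2 passed the filter through its untreated arrays alone, these p-values are no separate support for a fall. Between day 7 and day 4 the difference was 0.41 (SE 0.18, limma adjusted p = 0.12), and no fold is given for values that both lay under detection. A day 7 fall from untreated as large as that of Rag1 would also have left Rag2 under the detection level.

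Dntt encodes terminal deoxynucleotidyl transferase. Its probe set with the highest mean, an _x_at set that can also bind related transcripts, read 11.30, 11.14 and 11.15 on the untreated arrays, 4.07, 4.96 and 4.93 at day 4, and 9.24, 9.18 and 9.40 at day 7 (log2). The groups did not overlap, and by this probe set Dntt was the member that stayed above the detection level on every array. It was 93.3-fold lower at day 4 than untreated (log2 difference -6.54, SE 0.22, limma adjusted p = 6.7e-08). At day 7 it was 24.6-fold higher than at day 4 (log2 difference 4.62, SE 0.22, limma adjusted p = 3.1e-06) and 3.80-fold lower than untreated (log2 difference -1.92, SE 0.22, limma adjusted p = 1.6e-04).

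The other Dntt probe sets gave the same order of groups with other sizes. An _a_at set, which reads several transcripts of the gene, read 11.16, 10.94 and 11.00 untreated, 3.72, 3.75 and 3.78 at day 4, and 8.54, 8.64 and 8.83 at day 7 (log2). By it Dntt was at least 131-fold lower at day 4 than untreated, and 5.14-fold lower at day 7. The remaining _at set was dimmer, with 7.35, 6.95 and 7.10 untreated, 2.42, 2.27 and 2.45 at day 4, and 5.52, 4.10 and 5.10 at day 7. By it Dntt was at least 8.77-fold lower at day 4 than untreated, and 4.68-fold lower at day 7. The groups did not overlap in either set, and both lay under the detection level at day 4, unlike the _x_at set. The day 7 difference from untreated thus ranged between -2.36 and -1.92 over the 3 probe sets.

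Ptcra read 5.37, 5.37 and 5.39 on the untreated arrays, 2.73, 2.90 and 3.0 at day 4, and 4.52, 4.31 and 4.51 at day 7 (log2). The groups did not overlap, with day 4 under the detection level and day 7 just above it. Ptcra was at least 2.6-fold lower at day 4 than untreated (fitted log2 difference -2.50, SE 0.098, limma adjusted p = 1.8e-07). At day 7 it was at least 1.37-fold higher than at day 4 (fitted log2 difference 1.57, SE 0.098, limma adjusted p = 1.5e-05) and 1.90-fold lower than untreated (log2 difference -0.93, SE 0.098, limma adjusted p = 1.3e-04). Its dim signal on the untreated arrays left little room above the detection level, so its bounds are small by construction.

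**Figure D1:**
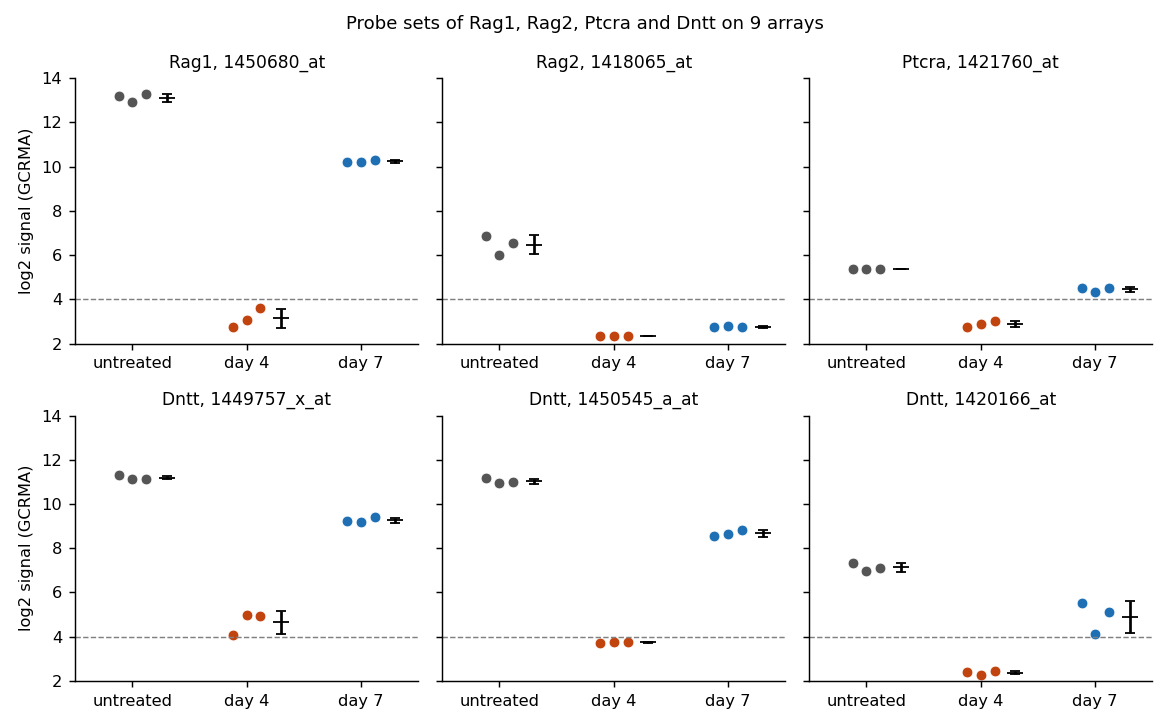
Log2 GCRMA signal of the 6 probe sets on each of the 9 arrays, by group, with the group mean and SD beside the points and the detection level of 4 as a dashed line. Rag1 lies between 2.76 and 3.61 at day 4 and between 10.19 and 10.30 at day 7, while Rag2 stays below the line at both times.

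Control probe sets moved at day 4 as well. The 3-prime minus 5-prime difference of Actb, which widens as RNA is degraded, was 2.28 ± 0.15 untreated, 3.13 ± 0.17 at day 4 and 2.51 ± 0.21 at day 7 (log2, SD, n = 3 each). That of Gapdh was 0.90 ± 0.13 untreated, 1.37 ± 0.24 at day 4 and 0.90 ± 0.21 at day 7. Its part in the day 4 values was not tested.

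The members did not keep their proportions to each other at day 7. Rag1 minus Dntt on the same array was 0.95, 1.04 and 0.90 at day 7 and 1.89, 1.77 and 2.12 untreated, a difference of -0.96 (log2). Rag1 minus Ptcra differed by -1.96 between day 7 and untreated, and Dntt minus Ptcra by -1.0. The groups did not overlap in any of the 3 pairs. These Dntt values rest on its _x_at set. Rag1 minus Dntt differed by -0.52 with the _a_at set and by -0.66, with overlapping groups, with the _at set. For the 3 pairs given first, each exact permutation test, two-sided, gave p = 0.1, the smallest that 3 arrays against 3 allow. The pairs with the other Dntt probe sets were not tested. Of Rag1, Dntt and Ptcra, Rag1 was furthest below its untreated level at day 7 and Ptcra nearest to it. That is also the order of their untreated means, 13.12, 11.2 and 5.38 (log2). Ptcra lay just above the detection level at day 7, where low differences are compressed. The part of signal level in this order was not tested. The Rag2 fall at day 7, of at least 5.59-fold, has no order against that of Rag1.

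Trbv1 and most of the genes whose products signal with pre-T alpha were lower with the members. Trbv1, a variable segment of the beta locus, was the only receptor gene segment tested, by an _x_at set that can also bind related transcripts. It read 12.83 ± 0.10 untreated, 5.37 ± 0.40 at day 4 and 10.84 ± 0.07 at day 7 (log2, SD, n = 3 each). It was 176-fold lower at day 4 than untreated (limma adjusted p = 1.4e-08) and 3.98-fold lower at day 7 (limma adjusted p = 5.7e-05). Tcra, the other listed locus name with a probe set, was too dim to test, at 2.40 ± 0.20 untreated and 2.27 on all irradiated arrays.

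Of the 8 signalling partners of the pre-T-cell receptor that were tested, 7 were lower at each irradiated time than untreated and 6 were higher at day 7 than at day 4. Their median log2 difference was -5.11 at day 4 and -2.34 at day 7, against medians of 0.196 and 0.089 over all genes tested. Among the CD3 chains, Cd3d read 10.67 ± 0.14 untreated, 4.34 ± 0.36 at day 4 and 8.53 ± 0.16 at day 7 (log2, SD, n = 3 each). Cd3g differed from untreated by -5.27 at day 4 and -1.94 at day 7, and Cd3e by -3.95 and -2.53. Cd3e read 5.57 on all 3 day 4 arrays, and whether that is a lower limit of its probe set was not tested. Cd247, the zeta chain, was at least 51.7-fold lower at day 4 than untreated and 6.08-fold lower at day 7. The adaptors Lat and Lcp2 were at least 62.3-fold and at least 25.9-fold lower at day 4 than untreated. At day 7, Lat was 6.60-fold and Lcp2 12-fold lower. The largest limma adjusted p among these genes against untreated was 1.5e-04, that of Cd3g at day 7. The kinase Zap70 varied more, with log2 differences of -2.40 at day 4 (limma adjusted p = 0.0043) and -1.63 at day 7 (limma adjusted p = 0.031), or -0.96 at day 7 without untreated replicate 1 (limma adjusted p = 0.066). The kinase Fyn did not pass in any comparison on all 9 arrays, with log2 differences of 0.45 (limma adjusted p = 0.055) and 0.29 (limma adjusted p = 0.21) at day 4 and day 7.

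Regulators of the members differed in how far they moved with them. Of 13 tested, 10 were lower and 2 higher at day 4 than untreated, and 9 were lower and 2 higher at day 7. Their median log2 difference was -2.45 at day 4 and -1.38 at day 7. With the arrays centred on the epithelial genes, 11 were lower and the same number, 2, higher at each time. Satb1, a chromatin organiser that supports Rag expression in mouse thymocytes, read 12.85 ± 0.36 untreated, 5.79 ± 0.09 at day 4 and 9.92 ± 0.02 at day 7 (log2, SD, n = 3 each). Bcl11b, which fixes the T-cell fate, differed from untreated by -6.48 at day 4 and -2.97 at day 7. Ikzf1, the gene of Ikaros, differed by -5.57 and -2.62, and Myb by -5.47 and -2.79. Lef1, a partner of beta-catenin, was at least 27.0-fold lower at day 4 than untreated and 5.88-fold lower at day 7. Each of these 5 was also higher at day 7 than at day 4, with limma adjusted p between 1.1e-06 and 6.1e-05.

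The other regulators differed less from untreated. The E protein genes Tcf12 and Tcf3 differed from untreated by -0.84 (limma adjusted p = 1.1e-04) and -0.31 (limma adjusted p = 0.045) at day 4. The Tcf3 call was lost in 7 of the 9 fits that left out an array. At day 7 the differences were -0.47 for Tcf12 (limma adjusted p = 0.0036) and -0.17 for Tcf3 (limma adjusted p = 0.26). Ets1 differed by -2.89 at day 4 and -1.38 at day 7, Cbfb, the binding partner of the RUNX proteins, by -1.05 and -0.90, and Gata3 by -2.45 and -2.14. Their limma adjusted p was at most 1.7e-04. Gata3 did not pass between day 7 and day 4 (log2 difference 0.30, limma adjusted p = 0.38). It read 5.13 on all 3 day 7 arrays and on day 4 replicate 3. Whether that repeated value is a lower limit of its probe set was not tested, so its falls may be bounds. Ets1 was higher at day 7 than at day 4 by 1.51 (limma adjusted p = 2.2e-04). Tcf12 was higher by 0.36 (limma adjusted p = 0.026, or 0.064 without day 4 replicate 1). Runx1 passed in no comparison under the deposited scaling, with log2 differences of 0.02 at day 4 and -0.21 at day 7 (limma adjusted p = 0.92 and 0.34). Foxo1, an activator of the Rag genes in lymphocytes, rose by 1.27 at day 4 (limma adjusted p = 2.4e-05) and 0.93 at day 7 (limma adjusted p = 2.7e-04) relative to untreated. Zfp608, a repressor of the Rag genes in mouse thymocytes, rose by 1.58 (limma adjusted p = 3.5e-05) and 1.21 (limma adjusted p = 3.0e-04). The cells that carried the Foxo1 and Zfp608 signal were not identified, so neither rise is shown to be in lymphocytes.

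**Figure D2:**
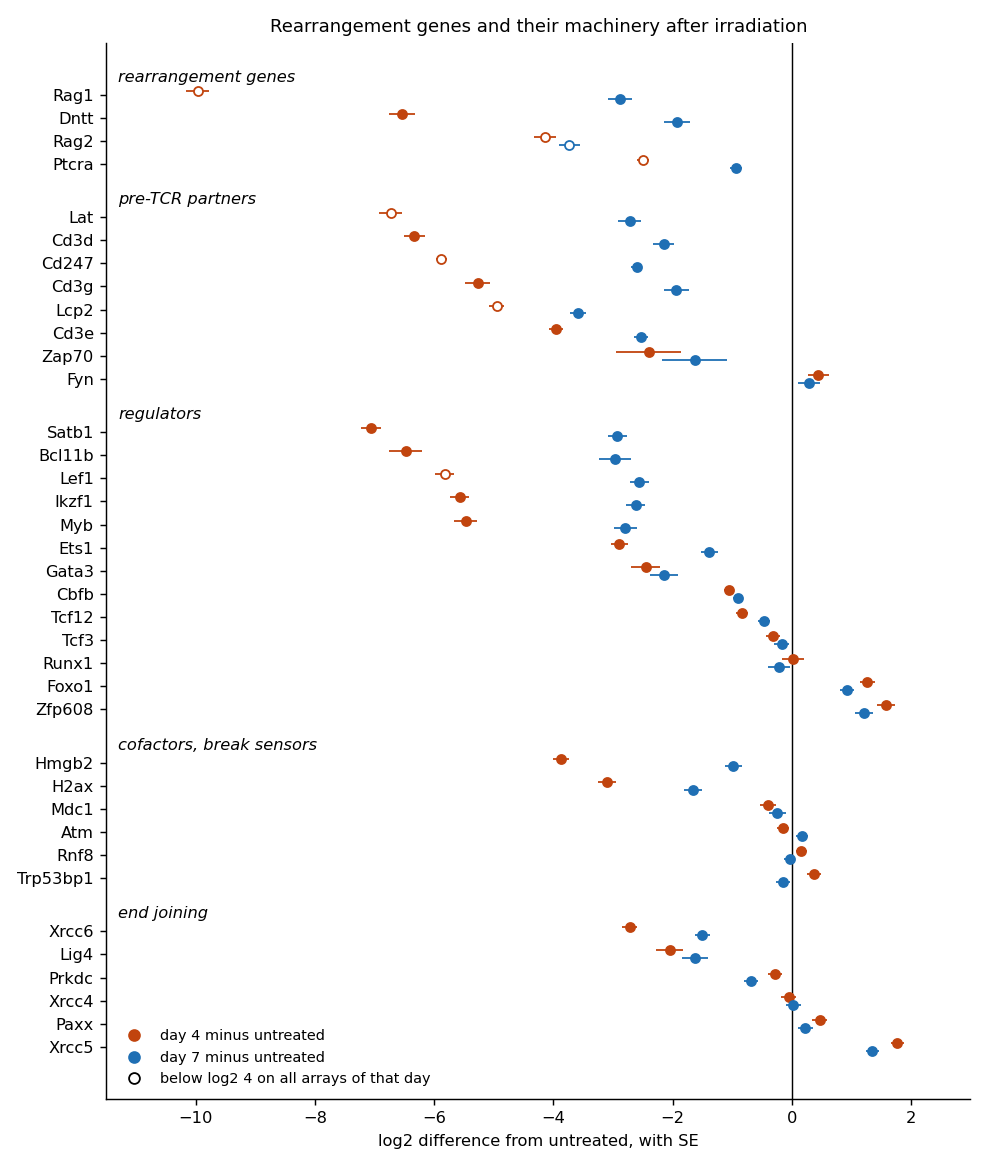
Fitted log2 difference from untreated, with SE, at day 4 and day 7 for the 4 members and the tested genes of 4 lists. Open circles mark groups below log2 4 on all arrays, where the true difference has only a bound. Rag1 at day 4 lies furthest left at -9.97, and Xrcc5, Foxo1 and Zfp608 lie to the right of 0 at both times.

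Factors that assist cleavage or mark the breaks were mixed. Of 6 tested, 3 were lower and 1 higher at day 4 than untreated (median log2 difference -0.27), and 2 were lower and none higher at day 7 (median -0.19). Hmgb2, a DNA-bending protein that helps RAG bind its signal sequences, read 12.33 ± 0.27 untreated, 8.46 ± 0.09 at day 4 and 11.35 ± 0.13 at day 7 (log2, SD, n = 3 each). It was 14.6-fold lower at day 4 than untreated (limma adjusted p = 1.2e-07) and 1.97-fold lower at day 7 (limma adjusted p = 5.5e-04). H2ax, the histone variant phosphorylated beside breaks, read 8.63 ± 0.22 untreated, 5.53 ± 0.20 at day 4 and 6.98 ± 0.14 at day 7. Both Hmgb2 and H2ax are also abundant in dividing cells. Trp53bp1, which protects broken ends, rose by 0.38 at day 4 (limma adjusted p = 0.017), but differed by -0.13 with the arrays centred on the epithelial genes. Mdc1, an adaptor at breaks, fell by 0.40 with overlapping groups (limma adjusted p = 0.036), a call lost in 7 of the 9 fits that left out an array. Neither of these passed against untreated at day 7. With the epithelial centring 5 of the 6 were lower at day 4 and all 6 at day 7. The kinase gene Atm and the ubiquitin ligase gene Rnf8 passed in no comparison under the deposited scaling, with log2 differences from untreated of -0.15 and 0.16 at day 4 and 0.17 and -0.03 at day 7. With quantile normalization Atm passed between day 7 and day 4 (log2 difference 0.40, limma adjusted p = 0.025), in place of 0.31 (limma adjusted p = 0.053).

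The end-joining genes, which all cells use, did not move as a group. Of 6 tested, 2 were higher and 2 lower at day 4 than untreated (median log2 difference -0.17), and 1 was higher and 3 lower at day 7 (median -0.32). The Ku subunit genes went opposite ways. Xrcc6, which encodes Ku70, read 9.08 ± 0.18 untreated, 6.36 ± 0.16 at day 4 and 7.58 ± 0.13 at day 7 (log2, SD, n = 3 each). Xrcc5, which encodes Ku80, read 6.84 ± 0.17 untreated, 8.62 ± 0.11 at day 4 and 8.19 ± 0.03 at day 7. The log2 difference from untreated was -2.72 for Xrcc6 (limma adjusted p = 4.8e-07) and 1.77 for Xrcc5 (limma adjusted p = 2.2e-06) at day 4. At day 7 it was -1.50 for Xrcc6 (limma adjusted p = 4.6e-05) and 1.35 for Xrcc5 (limma adjusted p = 3.1e-05). Lig4, the ligase that seals the joint, was 4.14-fold lower at day 4 than untreated (limma adjusted p = 6.4e-05) and 3.07-fold lower at day 7 (limma adjusted p = 4.3e-04). Prkdc, the kinase that Ku recruits, differed by -0.28 at day 4 (limma adjusted p = 0.071, or 0.018 with quantile normalization) and -0.68 at day 7 (limma adjusted p = 0.0017). Paxx passed at day 4 alone, at 0.47 (limma adjusted p = 0.012), and differed by -0.04 with the arrays centred on the epithelial genes. Xrcc4 passed in no comparison under the deposited scaling. With that centring, 1 gene was higher and 4 lower at each time. Nhej1, Poll and Polm were too dim to test.

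Most markers of double-positive thymocytes, the stage after pre-T-cell receptor signalling, moved with the members. Of 9 double-positive markers tested, 8 were lower at day 4 and 9 at day 7 than untreated, and 7 were higher at day 7 than at day 4. The mean of the list lay between 8.83 and 9.19 untreated, 3.46 and 3.52 at day 4, and 6.19 and 6.31 at day 7 (log2). Cd8b1, the CD8 beta chain, was at least 123-fold lower at day 4 than untreated, and the chemokine receptor gene Ccr9 at least 213-fold lower. At day 7 they were 5.99-fold and 11.9-fold lower. Cd5, a receptor that tunes T-cell signalling, lay under the detection level at both times, like Rag2, and was at least 10.8-fold lower than untreated at each. Its rise, counted among the 7, was between values under detection. Cd4 lay under that level at both times as well, and did not pass between day 7 and day 4. Cd4 and Cd5 passed the filter through their untreated arrays alone, so a difference from untreated was built into their passing.

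Markers of the earliest, double-negative stage were mixed. Of 6 tested, 3 were higher and 1 lower at day 4 than untreated, and 2 were higher and 1 lower at day 7. With the arrays centred on the epithelial genes, 2 were higher and 2 lower at day 4, and none higher and 2 lower at day 7. Hes1, a target of Notch that stroma also expresses, differed from untreated by 1.19 at day 4 and 0.46 at day 7, and Notch3 by 1.17 and 0.50, with limma adjusted p between 1.0e-05 and 0.049. With the arrays centred on the epithelial genes, the day 7 differences were -0.02 for Hes1 and 0.01 for Notch3, and Notch3 at day 7 did not pass with quantile normalization either (limma adjusted p = 0.056). Il7r, the interleukin 7 receptor, lay under the detection level at both times, at least 1.69-fold lower than untreated at each. It passed the filter through its untreated arrays alone, so a difference from untreated was built into its passing. Il2ra and Kit, which define the early stages, were too dim to test. Of 4 markers of mature single-positive cells, 3 were lower at day 4, and at day 7 2 were lower and 1 higher. The gene higher at day 7 was S1pr1, by 0.82 (limma adjusted p = 5.7e-04). Ms4a4b, a surface protein of mature T cells, was at least 5.43-fold lower than untreated at both times. Ms4a4b and Ccr7 lay under the detection level at both times and passed the filter through their untreated arrays alone. Their being lower than untreated was built in by that. Klf2, a factor of cells ready to leave the thymus, differed by -2.83 at day 4 (limma adjusted p = 9.8e-06) and -0.48 at day 7 (limma adjusted p = 0.091). Which cells carried the S1pr1 and Klf2 signal was not tested.

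Leukocyte and dividing-cell transcripts fell beside the members. All 10 pan-leukocyte genes were lower at both times, with a median log2 difference of -3.53 at day 4 and -2.56 at day 7, and 4 were higher at day 7 than at day 4. Ptprc differed from untreated by -7.58 at day 4 and -2.71 at day 7, and Coro1a, an actin regulator of leukocytes, by -5.67 and -2.21. Cd53 and Cd48 lay under the detection level at both times and passed the filter through their untreated arrays alone. A difference from untreated was therefore built into their passing. Cd53 was at least 8.16-fold lower than untreated at each time. All 7 genes of dividing cells were lower at both times than untreated (medians -4.32 at day 4 and -1.53 at day 7), and all 7 were higher at day 7 than at day 4. Among them, Top2a differed from untreated by -5.95 at day 4 and -1.84 at day 7, Birc5 by -5.40 and -1.53, and Cdk1 by -4.32 and -1.72. The part of the depletion, of cell number and of cell division in the members' values was not tested.

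B-lineage cells also use Rag1, Rag2 and Dntt, and their markers were divided between genes at the lowest value and genes above detection. Cd79a, Pax5 and Vpreb3 stood at 2.27, the lowest value, on all 9 arrays, and 4 of the 10 listed genes with a probe set reached the detection level. The mean of those 10 lay between 4.54 and 4.87 untreated, 4.35 and 4.66 at day 4, and 4.12 and 4.30 at day 7. Ighm, the heavy chain of immunoglobulin M, lay well above detection, with 11.77, 11.51 and 11.97 untreated, 9.39, 9.44 and 11.95 at day 4, and 9.92, 9.40 and 9.60 at day 7 (log2). Day 4 replicate 3 read as high as the untreated arrays, and the day 7 arrays lay below them. Ighm differed from untreated by -1.49 at day 4 (limma adjusted p = 0.051), or -2.34 without that replicate (limma adjusted p = 4.3e-05), and by -2.11 at day 7 (limma adjusted p = 0.014). Of the 4 tested, 1 was higher and 1 lower at day 4 than untreated, and 1 was higher and 3 lower at day 7. At day 4 the number lower was 2 with quantile normalization and 3 with the epithelial centring. The part of B-lineage cells in the members' values was not tested. Ebf1, which stromal cells also express, rose by 1.62 at day 4, Blnk, a signalling adaptor, differed by -0.97 with overlapping groups, and Cd79b by -0.89 (limma adjusted p = 8.8e-04, 0.032 and 0.052).

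The stromal lists were mostly higher at day 7 than untreated under the deposited scaling, and less uniformly so at day 4. Over all genes tested, 41.8% were higher at day 4 and 32.1% at day 7. All 7 fibroblast genes were higher at both times than untreated, with medians of 1.26 at day 4 and 0.77 at day 7, among them Lum, which rose by 1.77 and 1.24. Of 8 epithelial genes, 5 were higher at day 4 and 7 at day 7, with none lower, and Foxn1, which directs the identity of thymic epithelial cells, rose by 1.03 and 0.85. Centred on the epithelial genes themselves, 7 fibroblast genes were higher at day 4 and 2 at day 7, and no endothelial gene at day 4 but 6 at day 7. Of 7 endothelial genes, 3 were higher at day 4, a share near that over all genes, and 7 at day 7. Among them Kdr rose by 1.27, with overlapping groups, and by 3.05. Pecam1, under detection at day 4, differed by -1.11 there without passing, and by 1.47 at day 7. Of 4 myeloid genes tested, 3 were lower at each time, among them S100a8 at -2.77 and -3.93, while the lineage marker Itgam stood at the lowest value on all arrays. All 3 erythroid genes tested were lower at day 4 and 2 at day 7, among them Tfrc, the transferrin receptor, at -3.38 and -2.25.

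**Figure D3:**
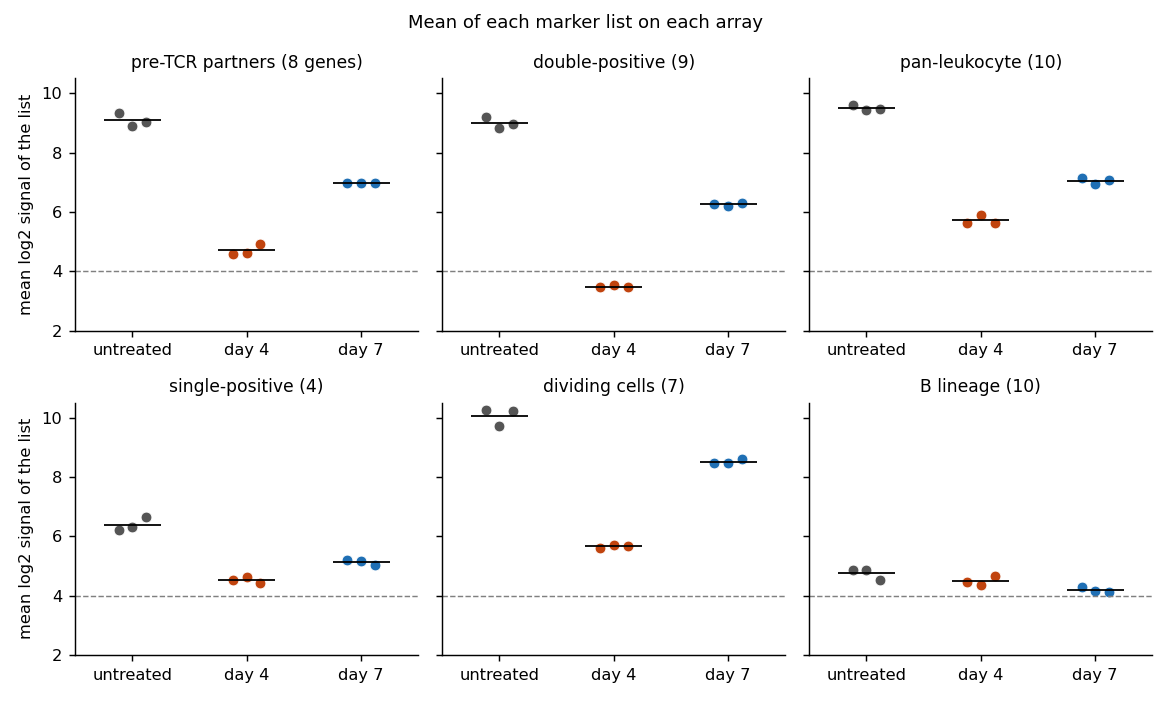
Mean log2 signal of 6 marker lists on each array, with the group mean as a bar and the detection level of 4 as a dashed line; the number of genes averaged stands in each title. The double-positive list lies between 3.46 and 3.52 at day 4 and between 6.19 and 6.31 at day 7, and the B-lineage list between 4.12 and 4.87 over all 9 arrays.

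To set the members against the blood cells that remained, the mean of the 10 pan-leukocyte genes was subtracted from each member on the same array. Cd53 and Cd48 of that list lay under detection at day 7, so its day 7 mean rests in part on such values. The result was 3.18 ± 0.12 at day 7 and 3.60 ± 0.17 untreated for Rag1, a difference of -0.42 (log2, SD, n = 3 each). It was 2.22 ± 0.11 at day 7 and 1.68 ± 0.01 untreated for Dntt, a difference of 0.54. For Ptcra it was -2.60 ± 0.03 at day 7 and -4.14 ± 0.09 untreated, a difference of 1.54. For Rag2, whose day 7 value is only an upper limit, it was -4.30 ± 0.14 at day 7 and -3.03 ± 0.36 untreated. Thus Rag1 stood lower, and Ptcra and Dntt higher, relative to these genes at day 7 than untreated, without overlap between the groups (two-sided exact permutation p = 0.1 each, the smallest possible). Ptcra lay just above the detection level at day 7, where low differences are compressed. The part of this in its values here and below was not tested. When all probe sets of each gene were averaged, the Rag1 difference was -0.87, and for Dntt the direction turned, to -0.16 with exact p = 0.3.

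Against the 8 pre-T-cell receptor partners the picture was similar for Rag1 and Ptcra. Rag1 minus that list was 3.25 ± 0.06 at day 7 and 4.03 ± 0.20 untreated, a difference of -0.78 (log2, SD, n = 3 each, two-sided exact permutation p = 0.1). It was -0.39 with the list's median in place of its mean. Ptcra minus the list was -2.53 ± 0.10 at day 7 and -3.72 ± 0.23 untreated, a difference of 1.18 (two-sided exact permutation p = 0.1). For Dntt the groups overlapped, at 2.29 ± 0.11 at day 7 and 2.10 ± 0.14 untreated (difference 0.18, two-sided exact permutation p = 0.2), and the difference was 0.57 with the list's median and -0.36 with the probe sets averaged. Values for day 4 are left out here, because Rag1, Rag2 and Ptcra and several genes of both lists lay under detection there. Some appear only among the alternatives at the end.

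**Figure D4:**
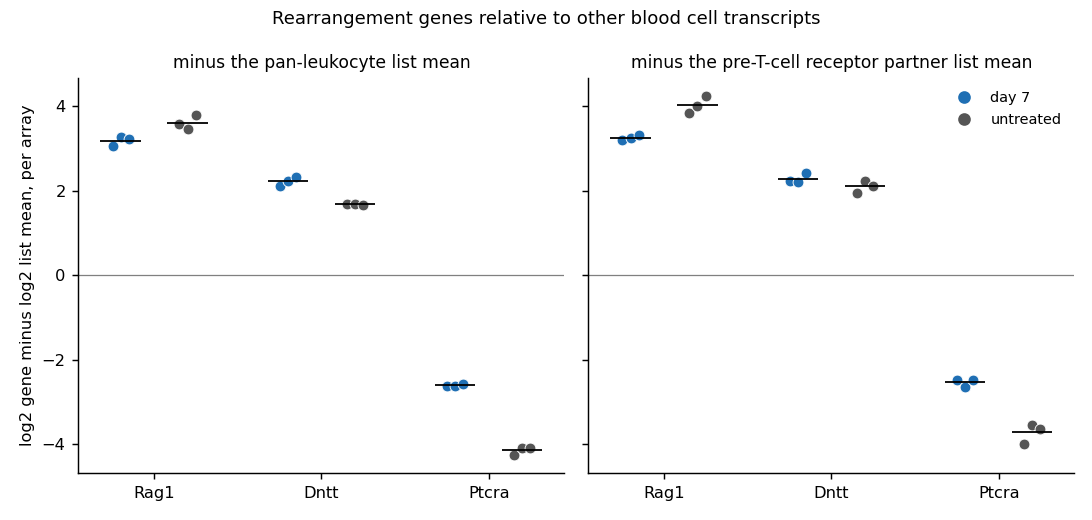
Log2 signal of Rag1, Dntt and Ptcra minus the mean of the pan-leukocyte list (left) and of the pre-T-cell receptor partner list (right) on each array at day 7 and untreated, with group means as bars. Rag1 is lower at day 7 in both panels, by 0.42 and 0.78, and Ptcra higher, by 1.54 and 1.18.

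For each member, the 5 genes whose pattern over the 9 arrays was most like it were taken by Pearson correlation. These correlations are descriptions over arrays in 3 well separated groups, which share hybridisation and processing, so most of their size comes from the group means. For Rag1 they were Trbv1 (r = 0.9994), the mitotic ubiquitin-conjugating enzyme gene Ube2c (0.9992), the topoisomerase gene Top2a (0.9988), Cd8b1 (0.9983) and the chromosomal passenger gene Cdca8 (0.9983), and 39 genes reached 0.99. For Dntt they were the spindle gene Nusap1 (0.9982), Ube2c (0.9982), Cd3d (0.9980), Rag1 (0.9979) and Trbv1 (0.9978), with 32 genes at 0.99 or above. For Ptcra they were Ptprc (0.9986), Cd3d (0.9982), Endou (0.9973), the T-cell adaptor gene Skap1 (0.9971) and the Src-like adaptor gene Sla (0.9967), with 57 genes.

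Rag2 had other neighbours, namely Slc16a5 (r = 0.9987), the hematopoietic cytoskeletal gene Hcls1 (0.9970), the mitotic phosphatase gene Cdc25c (0.9967), the thymocyte signalling gene Tespa1 (0.9966) and Slc6a19 (0.9964), with 45 genes at 0.99 or above. These 5 genes averaged between 4.36 and 6.40 untreated and between 2.30 and 3.21 at the irradiated times, under the detection level as Rag2 was. Their likeness to Rag2 was therefore largely set by values under detection in both irradiated groups. Rag1, Dntt and Ptcra correlated with each other at 0.9941 to 0.9979, and Rag2 with them at 0.7785 for Rag1, 0.7791 for Dntt and 0.8276 for Ptcra. At day 7 Rag2 lay under detection and Rag1, Dntt and Ptcra above it, so these lower correlations also rest on values under detection.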

How the data were processed

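The deposited table holds log2 values per probe set of Affymetrix mouse arrays. The submitters' processing notes name GCRMA without a version or settings. GCRMA corrects background by probe sequence, normalizes between arrays and summarises probes. The labels state no log base, and 2 was inferred from the range. Between 26.1% and 27.2% of values stood at the lowest value, 2.27, which compresses low differences.

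Of 45101 probe sets, 64 were controls. The annotation named 1 gene for 34945 of them, more than 1 for 932 and no gene for 9160. Each gene was represented by its brightest probe set on average, and 10937 of 18193 genes reached log2 4 on 3 or more arrays and were tested. As for Dntt and Trbv1, the sets of Hmgb2, Myb, Zap70 and Ccr9 were _x_at sets, which can also bind related transcripts. All arrays entered 1 fit with limma 3.58.1 (lmFit and eBayes, R 4.3.3), with two-sided p-values adjusted by Benjamini-Hochberg over all genes tested and called under 0.05. A gene under 4 on every array of a group has a bound, the other group's mean against the higher of 4 and its own value. Values relative to a list used exact permutation tests (scipy 1.17.1). The limma step was tested on simulated data. The precision is limited by the 3 arrays per group.

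The members and lists were chosen with earlier results of these data known. Named were the members, the genes of the rearrangement, regulator, receptor and partner lists, up to 3 genes of each other list by smallest adjusted p, marker genes of the cell types, and the 5 genes most correlated with each member. List genes not matched to a probe set of a single symbol were not used here, among them Lck, Dclre1c, Hmgb1, Tcf7 and the receptor constant regions. Promoter sequences and gene positions are those of RefSeq on GRCm38.p6, and all 4 members matched. Replicate numbers were taken from the titles. The deviations of same-numbered arrays correlated at -0.118 to 0.183, so the numbers were not treated as pairs. Alternatives were other filters, probe set rules, variance models, scalings, sample sets and leaving out each array.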

Additional observations from a re-analysis of the deposited data

Results flagged for a closer look

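The difference from untreated was not the same at day 4 and day 7 for 3 of the 4 members, by the test of day 7 against day 4 in the same limma fit. The fitted log2 difference between the times was 7.09 for Rag1 (adjusted p = 1.6e-07), 4.62 for Dntt (adjusted p = 3.1e-06) and 1.57 for Ptcra (adjusted p = 1.5e-05), each higher in 3 of 3 day 7 arrays. With values below 4 set to 4, the differences were 6.24 for Rag1, 4.62 for Dntt and 0.45 for Ptcra. For Rag2 the difference was 0.41 (adjusted p = 0.12), between groups that both lay under the detection level.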

How the results depend on the processing

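Against untreated, each member kept its direction and its call under all 20 alternatives, or 19 for Ptcra, which a detection level of 6 leaves out. For Rag2 this says nothing about stability, since it passed the filter through its untreated arrays alone. Over them the log2 difference at day 4 ran from -10.48 to -9.12 for Rag1, -4.64 to -2.48 for Rag2, -7.05 to -6.19 for Dntt and -3.01 to -1.38 for Ptcra. At day 7 it ran from -3.37 to -2.81 for Rag1, -4.21 to -2.48 for Rag2, -2.41 to -1.87 for Dntt and -1.41 to -0.86 for Ptcra. Setting values below 4 to 4 was chosen after seeing the data. The Rag2 difference between day 7 and day 4 of 0.41 passed by limma with array weights (0.41, adjusted p = 0.037), with only those groups in the fit (0.41, adjusted p = 0.0053) and without untreated replicate 2 (0.41, adjusted p = 0.016). The SE of the Rag2 difference was 0.14, 0.069 and 0.098 in these fits, in place of 0.18. The SD of Rag2 was 0.43 untreated, 0.0 at day 4 and 0.04 at day 7, and the main fit shares 1 estimate of spread. Without each array in turn the difference ran from 0.39 to 0.42, and its cause was not tested.

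With every probe set tested on its own, which enlarges the number tested, 10933 were called at day 4 and 9350 at day 7 against untreated, in place of 6916 and 5915 genes. Between day 7 and day 4, 2991 genes were called. Leaving out each array gave 1760 to 3464, with 1760 without day 7 replicate 2 and 1905 without day 4 replicate 2. With the replicate block 6669 genes were called at day 4 and 5588 at day 7 relative to untreated, and 2614 between the times, and no member's call changed.

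Of 233 calls of list genes over the 3 comparisons, 32 were lost without 1 array and 0 turned, a check chosen after seeing the data. Among the named calls against untreated these were Tcf3, Mdc1, Trp53bp1, Blnk and Kdr at day 4 and Zap70 and Notch3 at day 7.

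Some values relative to a list changed direction, and those that involve day 4 rest on values under detection. With the list's median in place of its mean, Rag2 minus the pan-leukocyte list differed by 1.53 in place of -0.34 between day 4 and untreated, and Ptcra minus that list by -1.58 in place of 0.24 between day 7 and day 4. With all probe sets of a gene averaged, Dntt at day 7 against untreated differed by -0.16 in place of 0.54 relative to the pan-leukocyte list and by -0.36 in place of 0.18 relative to the pre-T-cell receptor partners. Rag2 at day 4 against untreated differed by -0.45 in place of 0.25 relative to the partners. The cause was not tested.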
